A study of Mus musculus with 3 samples.

Results

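The tumour necrosis factor (TNF) superfamily and its receptors were followed in a comparison of mouse liver RNA with mouse spleen RNA. The members were the probes that the platform annotation gives to a single gene called Tnf, Lta, Ltb or Ltbr or with a symbol that begins with Tnfsf, Tnfrsf or Tnfaip. The rule found 55 of the 16281 probes in the table, and these stood for 36 of 10698 named genes, namely 12 ligands, 18 receptors and 6 Tnfaip genes. All 36 genes had a probe with a value on every array, which left 52 of the 55 probes for the tests. Of 44 protein-coding genes in the RefSeq table with such a symbol, 8 had no single-gene probe here and were not analysed. They were Tnfsf15, Tnfsf18, Tnfsfm13, Tnfrsf9, Tnfrsf14, Tnfrsf26, Tnfaip8 and Tnfaip8l3.

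The series holds 3 two-colour oligonucleotide arrays. Each array compared a commercial spleen RNA in the green dye, Cyanine-3, with a commercial liver RNA in the red dye, Cyanine-5, and both RNAs had been amplified once into labelled cRNA. The labels name 1 catalogue product per tissue for all 3 arrays and give no strain, sex, age or number of mice, so SDs and p-values below measure the spread between repeat arrays of 1 pair of RNAs, which may be technical. No array had the dyes exchanged, so a dye bias of a probe and a tissue difference cannot be told apart.

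Each value is the deposited log2 ratio of the channels, read as liver over spleen, so that a value below 0 is higher in spleen. The labels do not state this direction, and it is likely from genes of known tissue. The liver protein gene Ahsg read 4.04, 3.45 and 3.80 on arrays 1, 2 and 3, while 7 measured genes of spleen leukocytes had medians of -1.38, -1.33 and -0.47. Of these 7, 5 passed toward spleen and 1, Ccr7, passed toward liver at 0.31. An exact value of 0 was taken as no measurement. The table holds no intensities, so a probe near 0 may stand for equal levels or for no signal above background in either channel, and these cannot be told apart. In whole-tissue RNA, fewer cells of a type and less RNA per cell cannot be told apart either. Means are given ± SD over n = 3 arrays.

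Ligands of this superfamily are mostly trimeric proteins of the cell surface that can be shed, and they are made above all by lymphocytes, macrophages and dendritic cells. Their receptors recruit TRAF adaptors or, where they carry a death domain, death-domain adaptors, and feed into NF-kB signalling or cell death. In the spleen the family is known for B-cell survival and for the layout of lymphoid tissue through lymphotoxin. In the liver it is known for hepatocyte death, regeneration and inflammation. Tnfaip genes are not receptors or ligands. They were named for their induction by TNF or for sequence likeness to such a gene.

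The members spread to both sides of 0. By limma's moderated test against 0 with Benjamini-Hochberg adjustment over all 9803 measured genes, at an adjusted p under 0.05, 6 of the 36 genes passed toward liver, 11 toward spleen and 19 not at all. Of all genes tested, 25.3% passed toward liver, 27.4% toward spleen and 52.8% in either direction. The members' shares of 16.7% and 30.6% lie below the first and close to the second. With a difference of at least 2-fold as well, 3 members were higher in liver, 8.33% against 9.21% of all genes, and 6 were higher in spleen, 16.7% against 8.4%. The members' median was -0.12, beside 0.02 over all genes.

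**Figure D1:**
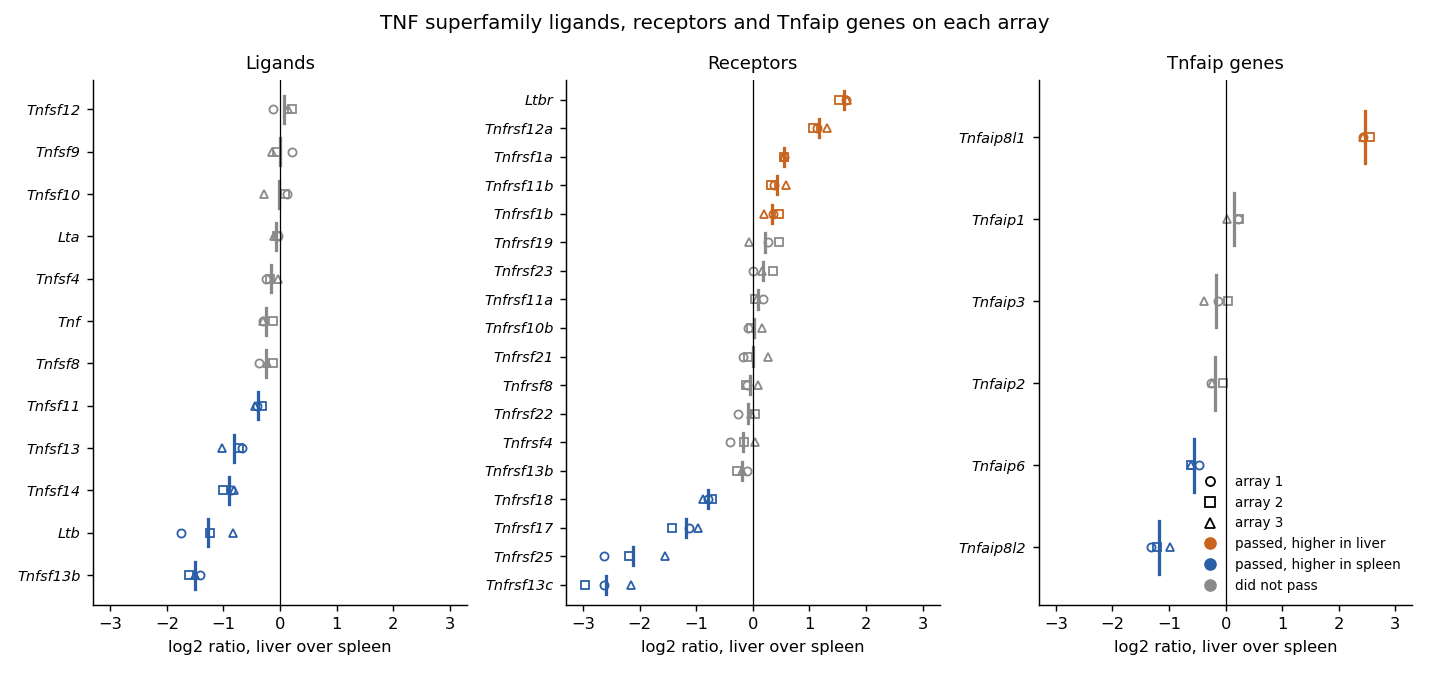
Log2 ratio (liver over spleen, x axis) of each ligand, receptor and Tnfaip gene (y axis) on arrays 1 (circle), 2 (square) and 3 (triangle), with the mean as a vertical bar. Blue genes passed toward spleen and orange genes toward liver. The ligands reach from -1.50 to 0.07, the receptors from -2.59 to 1.61, and Tnfaip8l1 stands furthest toward liver at 2.47.

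For 4 members the 250 bases before the RefSeq start are shown, in build GRCm38.p6. Tnfrsf13c has the lowest and Tnfaip8l1 the highest mean of the members, and Ltb and Ltbr are the ligand and receptor of the pair that lies furthest apart below. Capitals mark matches on either strand to the NF-kB consensus motif or a GC box (GGGCGG). An ETS-like motif (GAGGAAGT) and a TATA box (TATAAA) were also searched, and neither occurs in these 4 windows. Each motif was searched by itself, so matches may overlap, as the GC boxes of Tnfrsf13c do. The windows are chr15:82224381-82224630 on the minus strand for Tnfrsf13c, chr17:35194257-35194506 on the plus strand for Ltb, chr6:125313886-125314135 on the minus strand for Ltbr, and chr17:56162241-56162490 on the plus strand for Tnfaip8l1.
Tnfrsf13c: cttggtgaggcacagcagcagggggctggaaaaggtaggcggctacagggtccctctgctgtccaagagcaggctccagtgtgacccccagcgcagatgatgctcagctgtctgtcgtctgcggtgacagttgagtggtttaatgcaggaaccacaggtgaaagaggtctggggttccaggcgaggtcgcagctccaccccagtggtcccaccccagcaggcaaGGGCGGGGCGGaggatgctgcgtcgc
Ltb: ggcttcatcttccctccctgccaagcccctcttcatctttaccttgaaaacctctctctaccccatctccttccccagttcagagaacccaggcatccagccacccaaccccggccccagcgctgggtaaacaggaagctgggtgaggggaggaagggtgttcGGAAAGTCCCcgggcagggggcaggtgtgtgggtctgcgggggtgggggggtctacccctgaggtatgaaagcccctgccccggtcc
Ltbr: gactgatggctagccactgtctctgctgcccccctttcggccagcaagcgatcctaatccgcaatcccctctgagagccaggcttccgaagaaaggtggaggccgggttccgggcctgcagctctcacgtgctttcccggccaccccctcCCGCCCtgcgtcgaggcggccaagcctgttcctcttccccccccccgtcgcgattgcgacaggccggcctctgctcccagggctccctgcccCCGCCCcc
Tnfaip8l1: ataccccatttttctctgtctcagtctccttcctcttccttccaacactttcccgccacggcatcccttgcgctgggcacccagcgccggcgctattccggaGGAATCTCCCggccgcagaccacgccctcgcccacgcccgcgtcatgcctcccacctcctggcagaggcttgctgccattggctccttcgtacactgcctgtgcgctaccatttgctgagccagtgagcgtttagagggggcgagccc

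RefSeq windows were found for 30 of the 36 genes, 34 windows in all. The NF-kB consensus stood in 6 of them and in 7.25% of all 32851 windows. The genes with it were Ltb and Tnfrsf25, higher in spleen, Tnfaip8l1, higher in liver, and Tnfaip2, Tnfaip3 and Tnfrsf8, which did not pass, so it occurred on both sides. A stricter form of this motif, searched first, stood in 2 of the 34 windows, those of Ltb and Tnfaip8l1, and in 1.21% of all windows. The wider consensus was adopted after that count was known. A GC box stood in 16 of the 34 windows and in 32.7% of all windows. The TATA letters stood in 6 of the 34, among them those of Tnf and Lta, and in 12.4% of all windows. The ETS-like letters stood in 0 of the 34 and in 2.44% of all windows. A match is a description of the letters and does not show a binding site.

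The 5 ligands that passed were all higher in spleen, led by Tnfsf13b and Ltb. Tnfsf13b, the B-cell survival factor BAFF, read -1.41, -1.61 and -1.50 on the 3 arrays. Ltb, the membrane-bound lymphotoxin chain that holds lymphotoxin alpha at the cell surface, read -1.75, -1.23 and -0.83. Every array lay below 0 for both, and Ltb differed more between the arrays than any other ligand. Tnfsf13b was 2.83-fold higher in spleen (-1.50 ± 0.10, adjusted p = 6.82e-05 by limma), and Ltb 2.42-fold (-1.27 ± 0.46, adjusted p = 0.00228 by limma). Another Tnfsf13b probe, drawn from the same accession, was listed at 0 on array 2 and read -0.93 and -1.33 on the other two.

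A further 3 ligands passed toward spleen with smaller differences. Tnfsf14, the T-cell ligand LIGHT, which shares the receptor Ltbr with lymphotoxin, read -0.87, -1.01 and -0.82. Tnfsf13, the ligand APRIL of B cells and plasma cells, read -0.67, -0.72 and -1.03. Both lay below 0 on each array, by 1.86-fold for Tnfsf14 (adjusted p = 0.000431 by limma) and 1.75-fold for Tnfsf13 (adjusted p = 0.00149 by limma). Tnfsf11, known as RANKL and needed for osteoclasts and lymph node formation, averaged -0.39 ± 0.07 (adjusted p = 0.00816 by limma). Its probes differed, with 1 at -0.77 ± 0.02 and the other at -0.02 ± 0.12.

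The remaining 7 ligands did not pass. Tnf itself, the inflammatory cytokine made largely by macrophages, read -0.30, -0.12 and -0.31 and averaged -0.24 ± 0.11 over 3 probes (adjusted p = 0.0535 by limma). Its sign was the same on all 3 arrays, and it passed when each array was centred on its median (adjusted p = 0.0387 by limma). The range of its adjusted p over all alternatives was 0.00191 to 0.198. Tested by themselves, the Tnf probes at -0.30 ± 0.16 and -0.27 ± 0.11 passed toward spleen, and that at -0.15 ± 0.06 did not. Tnfsf8, the ligand of CD30 on activated lymphocytes, averaged -0.24 ± 0.12 (adjusted p = 0.059 by limma) and passed with centred arrays too (adjusted p = 0.0446 by limma, range over the alternatives 0.0446 to 0.253). The Tnfsf8 mean joined a probe at -0.59 ± 0.21, which passed by itself toward spleen, with another at 0.10 ± 0.30, which did not pass. The soluble lymphotoxin Lta was at -0.07 ± 0.03 (adjusted p = 0.473 by limma). With the probes that the annotation gives to several genes added, it was at -1.31 and passed toward spleen (adjusted p = 0.00149 by limma, range over the alternatives 0.00149 to 0.707). The OX40 ligand Tnfsf4 was at -0.16 ± 0.11. Tnfsf10, the death ligand TRAIL, averaged -0.02 ± 0.23 and Tnfsf12, the tissue-repair ligand TWEAK, 0.07 ± 0.17. Tnfsf9, a T-cell costimulator, read 0.20, -0.06 and -0.15. The signs of Tnfsf9, Tnfsf10 and Tnfsf12 differed between the arrays.

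The receptors held the largest differences toward spleen in the families. Tnfrsf13c, the BAFF receptor of mature B cells, read -2.64, -2.97 and -2.15, a 6.01-fold mean difference (-2.59 ± 0.41, adjusted p = 0.000118 by limma). Tnfrsf25, a death-domain receptor of T cells, read -2.62, -2.19 and -1.55, a 4.35-fold mean difference (-2.12 ± 0.54, adjusted p = 0.000563 by limma). Each of these receptors was measured with 1 probe. For both, the array nearest to 0 was array 3. The SD of the ratios over all genes was 0.892 on array 3, against 0.997 and 1.01 on arrays 1 and 2. Whether this narrower range bears on the values of Tnfrsf13c and Tnfrsf25 was not tested. Only 0.49% of all genes had a lower mean than Tnfrsf13c, and 1.21% a lower mean than Tnfrsf25.

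Another pair of receptors passed toward spleen, each with probes that differed. Tnfrsf17, the plasma-cell receptor BCMA for BAFF and APRIL, averaged -1.18 ± 0.23 (2.26-fold, adjusted p = 0.000482 by limma). Both of its probes were below 0 on every array, 1 at -1.80 ± 0.54 and the other at -0.56 ± 0.14. Tnfrsf18, the receptor GITR of regulatory and activated T cells, averaged -0.80 ± 0.08 (adjusted p = 0.000606 by limma). This mean joined a probe at -2.37 ± 0.24 with others at 0.04 ± 0.20 and -0.06 ± 0.29, and only the first of these 3 probes passed by itself. The probes at -2.37 and 0.04 share an accession.

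Most measured markers of lymphocytes lay on the spleen side as well. Of 4 measured B-cell markers, 3 passed toward spleen and the fourth, Ms4a1, was at 0.05, with a range of -1.38 to 0.05. That value is of 1 Ms4a1 probe, and 2 others, left out because they were listed at 0 on some arrays, read -1.46 and -3.87 on arrays 1 and 2, and -4.51 on array 2. Of 5 T-cell markers, 3 passed toward spleen, with a range of -2.12 to 0.13, and Cd3e and Cd4 did not pass. All 4 macrophage markers passed toward spleen, between -2.05 and -0.34, though Adgre1 and Cd68 only narrowly (adjusted p = 0.0398 and 0.0492 by limma). Of all genes, 27.4% passed toward spleen. Clec4f, the measured Kupffer-cell marker, averaged 1.62 ± 0.17 toward liver, from probes at 3.18 ± 0.32 and 0.05 ± 0.11. The part of the markers' cells in the differences of the ligands and receptors was not tested.

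On the liver side, 5 receptors passed, led by Ltbr and Tnfrsf12a. Ltbr, the receptor of membrane lymphotoxin and LIGHT, read 1.65, 1.52 and 1.66, a 3.06-fold mean difference (1.61 ± 0.08, adjusted p = 4.72e-05 by limma). Tnfrsf12a, the TWEAK receptor Fn14, read 1.14, 1.05 and 1.32, a 2.25-fold mean difference (1.17 ± 0.13, adjusted p = 0.000209 by limma). All arrays lay above 1 for both genes. Each was measured with 1 probe.

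The TNF receptors themselves differed less. Tnfrsf1a, the widely expressed TNF receptor with a death domain, averaged 0.55 over 2 probes (1.46-fold, adjusted p = 0.00186 by limma), at 0.68 ± 0.07 and 0.42 ± 0.07. On the array where 1 of these probes was higher the other was lower, so the gene's mean was 0.55 on each array and its own SD understates the spread. Tnfrsf1b, the TNF receptor without a death domain, read 0.36, 0.45 and 0.19 (0.33 ± 0.13, adjusted p = 0.0231 by limma). With array 1 left out its adjusted p by limma was 0.0954, and with array 2 left out 0.113, so that it no longer passed. Tnfrsf11b, the secreted decoy osteoprotegerin, averaged 0.42 ± 0.14 (adjusted p = 0.0109 by limma), with 1 probe at 0.64 ± 0.27 and the other at 0.20 ± 0.10.

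A further 9 receptors did not pass. Tnfrsf13b, the receptor TACI for BAFF and APRIL, averaged -0.19 ± 0.09 (adjusted p = 0.0976 by limma). Of its probes, 1 averaged -0.45 ± 0.22 and passed by itself toward spleen, while the other was at 0.08 ± 0.07. The CD30 gene Tnfrsf8 averaged -0.05 ± 0.12, from probes at -0.31 ± 0.17 and 0.22 ± 0.09, of which the first passed by itself. The OX40 gene Tnfrsf4 read -0.41, -0.15 and 0.04, and Tnfrsf11a, the RANKL receptor, averaged 0.10 ± 0.08. The TRAIL death receptor Tnfrsf10b averaged 0.02 ± 0.13, and its mouse decoy relatives Tnfrsf22 and Tnfrsf23 -0.09 ± 0.16 and 0.17 ± 0.18. Tnfrsf22 and Tnfrsf23 are closely related genes that may share signal between probes. The death-domain receptor Tnfrsf21 read -0.17, -0.08 and 0.27. Tnfrsf19, known as TROY, averaged 0.22 ± 0.27 and passed toward liver without array 3, where the mean was 0.36 (adjusted p = 0.041 by limma, range over the alternatives 0.041 to 0.572).

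**Figure D2:**
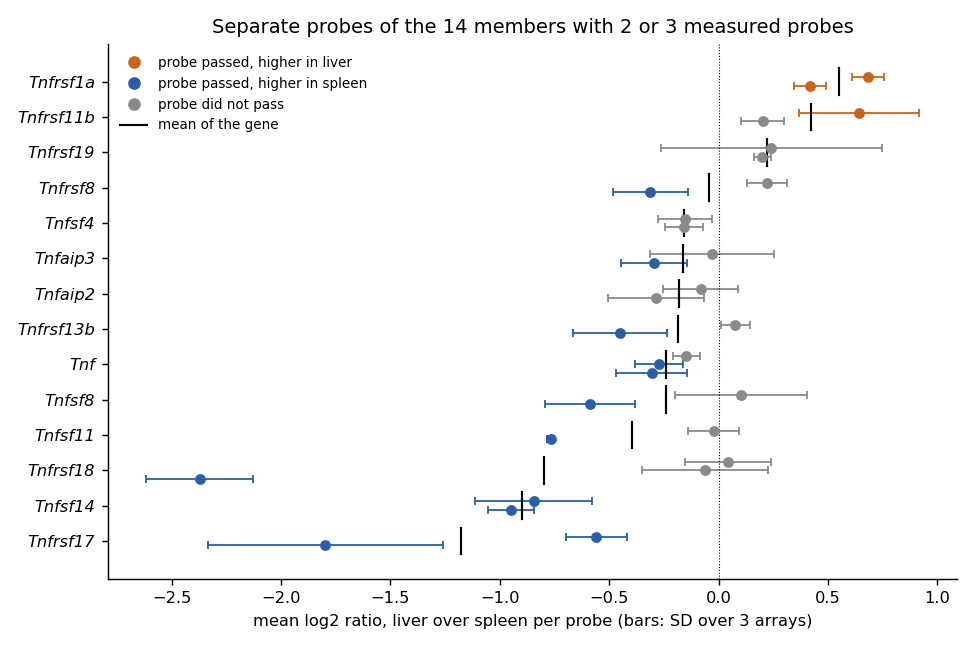
Mean log2 ratio (liver over spleen, x axis) of each probe of the 14 members with 2 or more probes measured on all arrays (y axis), with bars of SD over 3 arrays and a black line at the gene's mean. The probes of Tnfrsf18 lie 2.41 apart and those of Tnfrsf17 1.24 apart, while those of Tnfsf14 and Tnfsf4 lie together.

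Between the probes of a gene, the gap from the lowest to the highest mean was over 1 for 2 of the 14 members that had several probes, Tnfrsf17 and Tnfrsf18. The share of 14.3% was close to the 15.4% of all 2236 genes with several probes. The median gap was 0.35 for the members and 0.33 for all genes. With each probe tested by itself, 7 of the 52 member probes passed toward liver and 19 toward spleen, shares of 13.5% and 36.5%, against 24.1% and 26.6% of all 12259 probes.

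Ligands and receptors differed in how they spread. Of the 12 ligands, 0 passed toward liver and 5 toward spleen, and the 7 others were between -0.24 and 0.07. Of the 18 receptors, 5 passed toward liver and 4 toward spleen. These counts compare with 25.3% and 27.4% of all genes. The ligand means lay below 0 for 11 of 12 genes and the receptor means for 8 of 18, beside 4716 of 9803 genes. On all 3 arrays, 9 ligands were below 0 and 0 above, 5 receptors were below 0 and 6 above, and of all genes 36.4% were below and 38.3% above.

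The median ligand stood lower than the median receptor on every array. The ligand medians were -0.33, -0.15 and -0.30 on arrays 1, 2 and 3, and the receptor medians -0.09, -0.0012 and 0.09. The ligand median minus the receptor median was -0.24, -0.15 and -0.39, an average of -0.26 ± 0.12. Genes are not replicates of a condition, so this difference is a description with no test. It kept its sign in all of the alternatives tried, from -0.56 to -0.20. Adding the family genes under other symbols, given below, was not among these alternatives and brought the medians of the means closer. The ligand median moved from -0.24 to -0.11, with 11 of 16 ligand means below 0, and the receptor median stayed at 0.01. The distance from the lower to the upper quartile was 0.77 for the ligands, 0.49 for the receptors and 0.64 for all genes.

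**Figure D3:**
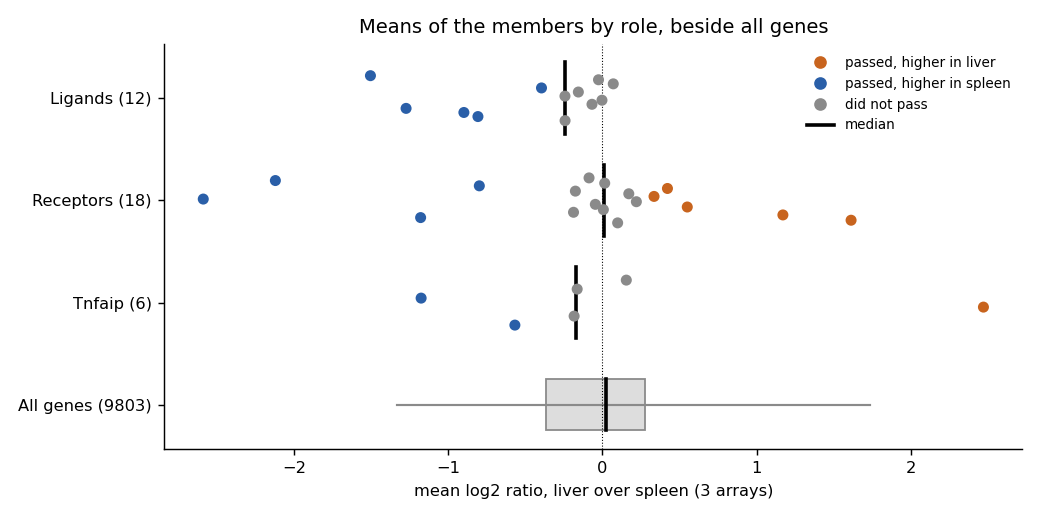
Mean log2 ratio (liver over spleen, 3 arrays, x axis) of each gene by role, with black bars at the medians. For all 9803 genes the box spans the quartiles and the line runs from the 5th to the 95th percentile. The ligands reach no further toward liver than 0.07, while 5 receptors in orange passed toward liver.

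The families hold 4 ligands and 7 receptors under other symbols. Read from the same arrays, they gave 4 ligands and 5 receptors with values. The ligands Cd40lg, Fasl, Cd70 and Eda all had means above 0, at 0.17 ± 0.18, 0.08 ± 0.22, 0.24 ± 0.01 and 0.31 ± 0.15. Cd70, the ligand of the lymphocyte receptor Cd27, and ectodysplasin (Eda) passed toward liver (adjusted p = 0.0403 and 0.0332 by limma), but neither call was stable. Leaving out any 1 array took Cd70 to an adjusted p of 0.101 to 0.148. Eda rose to 0.155 when array 1 was left out and to 0.0913 when array 3 was. With them the ligand median was -0.11 over 16 genes, and 2 passed toward liver. The receptor median stayed at 0.01 over 23 measured genes.

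Of the 5 measured receptors under other symbols, Cd40 and Cd27 were higher in spleen. Cd40, the costimulatory receptor of B cells, read -2.41, -1.27 and -0.81, and Cd27, a receptor of T and memory B cells, -1.73, -1.54 and -1.12. The arrays lay below 0 for both as genes, with means of -1.50 ± 0.83 (adjusted p = 0.00922 by limma) and -1.46 ± 0.31 (adjusted p = 0.000428 by limma). The Cd27 mean joined a probe at -3.07 ± 0.59 with another of the same accession at 0.15 ± 0.13, which lay above 0 on all 3 arrays, so the direction rests on the first. The death receptor gene Fas averaged 0.44 ± 0.12 toward liver (adjusted p = 0.00771 by limma). The neurotrophin receptor gene Ngfr averaged 0.47 ± 0.24 (adjusted p = 0.0179 by limma), which rose to 0.0818 when array 1 was left out and to 0.0863 when array 2 was. The ectodysplasin receptor gene Edar was at -0.08 ± 0.05, and Eda2r and Relt were not analysed here.

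Known partners were then set side by side in 21 ligand-receptor pairs, 18 of them among the members. The pairs share genes and are not independent, and both partners are ratios within the same arrays. The receptor's ratio was above the ligand's on all 3 arrays in 14 pairs and below it on all 3 arrays in 3 pairs. Eda with its receptor Edar, both measured, was not among the 21 pairs. Eda read 0.45, 0.15 and 0.33 and Edar -0.13, -0.04 and -0.09, so there too the receptor's ratio was below the ligand's on all 3 arrays. In 3 pairs the ligand passed toward spleen and the receptor toward liver, and in 1 pair the reverse held. In 3 pairs both passed toward spleen, and in 0 pairs did both pass toward liver. Taken singly, 25.3% of all genes passed toward liver and 27.4% toward spleen. Pairs of other genes were not counted, so these pair counts are a description only. The widest gap among the members was that of lymphotoxin, where Ltbr minus Ltb was 2.88 ± 0.47. For Ltbr minus Tnfsf14 it was 2.51 ± 0.03. The third such pair was RANKL with its decoy, at 0.82 ± 0.20 for Tnfrsf11b minus Tnfsf11.

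In the BAFF and APRIL system, both ligands and the receptors Tnfrsf13c and Tnfrsf17 had passed toward spleen. Tnfrsf13c minus Tnfsf13b was -1.08 ± 0.38, so the receptor's ratio stood further toward spleen than the ligand's on each array. Tnfrsf17 minus Tnfsf13b was 0.33 ± 0.18, and Tnfrsf17 minus Tnfsf13 was -0.37 ± 0.39, the latter with signs that differed between the arrays. The Tnfrsf17 mean joins probes at -1.80 and -0.56. The means of Tnfsf13b at -1.50 and Tnfsf13 at -0.81 lie between these, so the sign of both differences depends on the probe. The pair of Tnfrsf17 with Tnfsf13b is among the 14 pairs with the receptor's ratio above the ligand's on all 3 arrays. TACI stood apart, at 1.32 ± 0.02 for Tnfrsf13b minus Tnfsf13b. The Tnfrsf13b mean joins a probe at -0.45 ± 0.22, which passed toward spleen by itself, with another at 0.08 ± 0.07. Both lie above Tnfsf13b at -1.50. In the TNF pairs the receptor's ratio was higher by 0.79 ± 0.11 for Tnfrsf1a minus Tnf and by 0.58 ± 0.08 for Tnfrsf1b minus Tnf. For Tnfrsf12a minus Tnfsf12 it was 1.10 ± 0.22. The reverse order held for Cd40 minus Cd40lg at -1.67 ± 0.65. Cd27 minus Cd70 was -1.70 ± 0.32, which rests on the Cd27 probe at -3.07, since the other, at 0.15, lies near Cd70 at 0.24. The TRAIL, OX40 and CD30 pairs differed little, at 0.04 ± 0.36, -0.02 ± 0.12 and 0.20 ± 0.17, with mixed signs between the arrays.

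**Figure D4:**
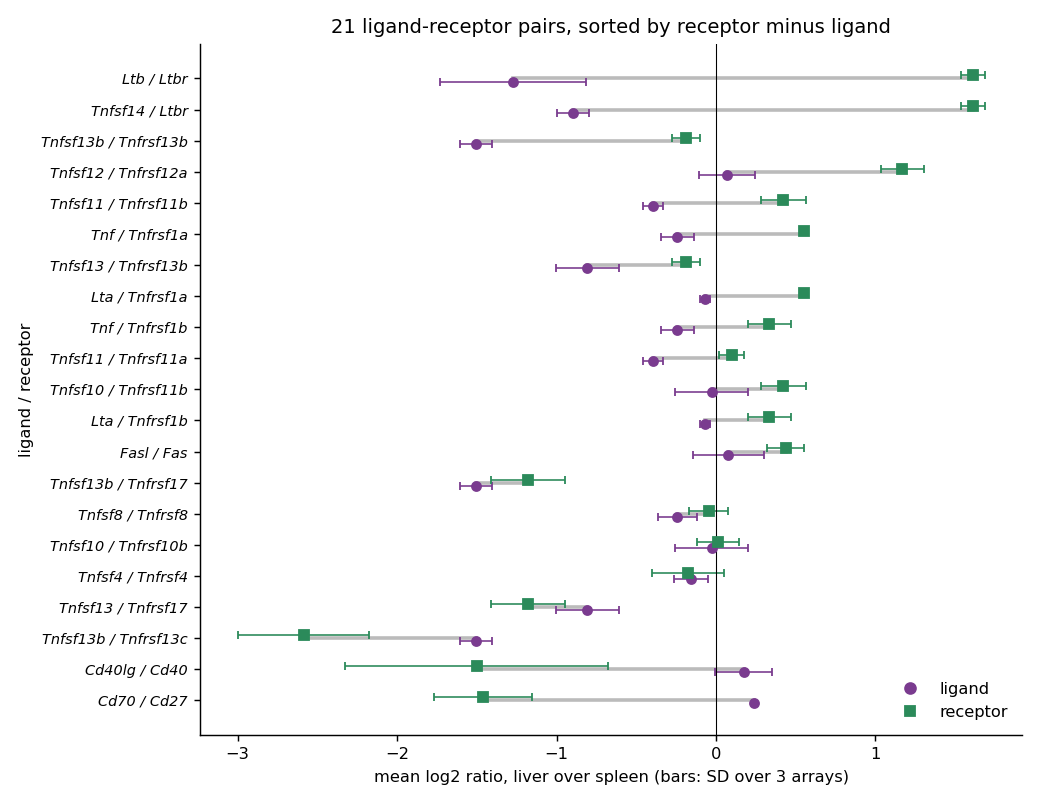
Mean log2 ratio (liver over spleen, x axis) of the ligand (purple circles) and receptor (green squares) of 21 pairs (y axis), with bars of SD over 3 arrays. The pairs Ltb with Ltbr and Tnfsf14 with Ltbr are furthest apart with the receptor toward liver, and Cd70 with Cd27 and Cd40lg with Cd40 are furthest apart with the receptor toward spleen.

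Several members are direct neighbours among protein-coding genes in the RefSeq order of GRCm38.p6. On chromosome 17, Ltb, Tnf and Lta follow each other, with means of -1.27, -0.24 and -0.07, and Tnfsf9, Cd70 and Tnfsf14 follow each other, with means near 0, 0.24 and -0.90. On chromosome 11, Tnfsf13 at -0.81 lies beside Tnfsf12 at 0.07, and on chromosome 4 Tnfrsf18 at -0.80 lies beside Tnfrsf4 at -0.17. On chromosome 6, Ltbr at 1.61 has 1 gene between it and Tnfrsf1a at 0.55 on one side, and 1 gene between it and Cd27 at -1.46 on the other. By their means alone, neighbours thus fell on the same side in some clusters and on opposite sides in others. Several of these genes did not pass, among them Tnf, Lta, Tnfsf12 and Tnfrsf4, and the Cd70 call was not stable. The Cd27 mean joined probes at -3.07 and 0.15. With the probes of several genes added, Tnf stood at -0.92 and Lta at -1.31.

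The Tnfaip genes also lay on both sides of 0. Tnfaip8l1, a relative of the apoptosis regulator Tnfaip8, read 2.43, 2.56 and 2.43, a 5.54-fold mean difference toward liver (2.47 ± 0.08, adjusted p = 1.58e-05 by limma). Its paralogue Tnfaip8l2, known as TIPE2 and as a brake on lymphocyte and macrophage activation, read -1.32, -1.21 and -0.99, a 2.26-fold difference toward spleen (-1.17 ± 0.17, adjusted p = 0.000275 by limma). The arrays of these paralogues lay on opposite sides of 0 without overlap, and each gene was read from 1 probe. Tnfaip6, a secreted hyaluronan-binding protein, averaged -0.57 ± 0.08 (adjusted p = 0.00216 by limma). Tnfaip3, the ubiquitin-editing inhibitor A20 of NF-kB signalling, averaged -0.16 ± 0.21 and did not pass as a gene (adjusted p = 0.238 by limma), although 1 of its probes, at -0.30 ± 0.15, did (adjusted p = 0.0448 by limma). Tnfaip2 averaged -0.18 ± 0.11 and Tnfaip1 0.16 ± 0.12, and neither passed.

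Downstream of the receptors, most signalling genes that passed were higher in spleen. Of 32 measured genes in 3 lists, 18 passed toward spleen and 5 toward liver, against 27.4% and 25.3% of all genes, with a median of -0.32. Without array 1, 15 passed toward spleen and 2 toward liver, without array 2, 14 and 3, and without array 3, 18 and 3. The shares of all genes toward spleen fell in the same settings, to 21.7%, 21.3% and 25.4%, and those toward liver to 18.1%, 18.7% and 22%. Most of the leukocyte markers given above also passed toward spleen, but Ms4a1, Cd3e and Cd4 did not pass, and Clec4f and Ccr7 passed toward liver. The part of these markers' cells in the counts was not tested.

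Of 15 measured genes in a list of receptor adaptors, their partners and cell death proteins, 8 passed toward spleen and 4 toward liver. The share toward liver, 26.7%, was close to the 25.3% of all genes, while that toward spleen was 53.3% against 27.4%. Birc3, a ubiquitin ligase recruited through TRAF adaptors, read -2.70, -2.48 and -2.03, and Ripk3, the kinase of necroptosis, -2.31, -2.54 and -2.12. Their means were -2.40 ± 0.34 and -2.32 ± 0.21 (adjusted p = 9.17e-05 and 3.97e-05 by limma). The adaptor Traf5 followed at -1.55 ± 0.19 (adjusted p = 0.000122 by limma). Toward liver, Bag4, which binds the death domain of the TNF receptor, averaged 0.87 ± 0.16 and Traf4 0.51 ± 0.09 (adjusted p = 0.000849 and 0.00353 by limma). Mlkl, the effector of necroptosis, averaged 0.28 ± 0.05 (adjusted p = 0.0248 by limma) and no longer passed when any 1 array was left out (adjusted p 0.0716 to 0.102). Toward liver, 2 of these 15 genes passed without array 1, 2 without array 2 and 2 without array 3. The shares of all genes toward liver were 18.1%, 18.7% and 22% in these settings.

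Of 9 measured NF-kB pathway kinases, ubiquitin enzymes and proteins that bind them, 6 passed toward spleen and 1 toward liver. The shares were 66.7% and 11.1%, against 27.4% and 25.3% of all genes. Tnip1, a ubiquitin-binding partner of A20, averaged -1.79 ± 0.08 and Tab1, a partner of the kinase TAK1, -1.40 ± 0.16 (adjusted p = 3.5e-05 and 0.000143 by limma). A further Tnip1 probe stood at 0.16 and 0.39 on the first pair of arrays and had no measurement on array 3. Tab2, of the same kinase complex, averaged -0.71 ± 0.14 (adjusted p = 0.00145 by limma). Its relative Tab3 read 1.59, 2.42 and 0.49, the widest spread among these genes, and passed toward liver (1.50 ± 0.97, adjusted p = 0.0159 by limma) but not without array 1 (adjusted p = 0.0553). Of these 9, 4 passed toward spleen without array 1, where 0 passed toward liver, 4 without array 2 and 5 without array 3. The shares of all genes toward spleen were 21.7%, 21.3% and 25.4% in these settings.

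Of 8 measured NF-kB subunits and members of the NF-kB inhibitor family, 4 passed toward spleen and 0 toward liver. These are shares of 50% and 0%, against 27.4% and 25.3% of all genes. Relb, the subunit of the pathway engaged by BAFF and lymphotoxin receptors, averaged -1.03 ± 0.15 (2.05-fold, adjusted p = 0.000389 by limma). Nfkbiz and Nfkbia, both of the inhibitor family, averaged -0.61 ± 0.06 and -0.57 ± 0.10 (adjusted p = 0.00148 and 0.0024 by limma). Without array 2 the count toward spleen was 3, and without array 3 it was 5, where 21.3% and 25.4% of all genes passed toward spleen.

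**Figure D5:**
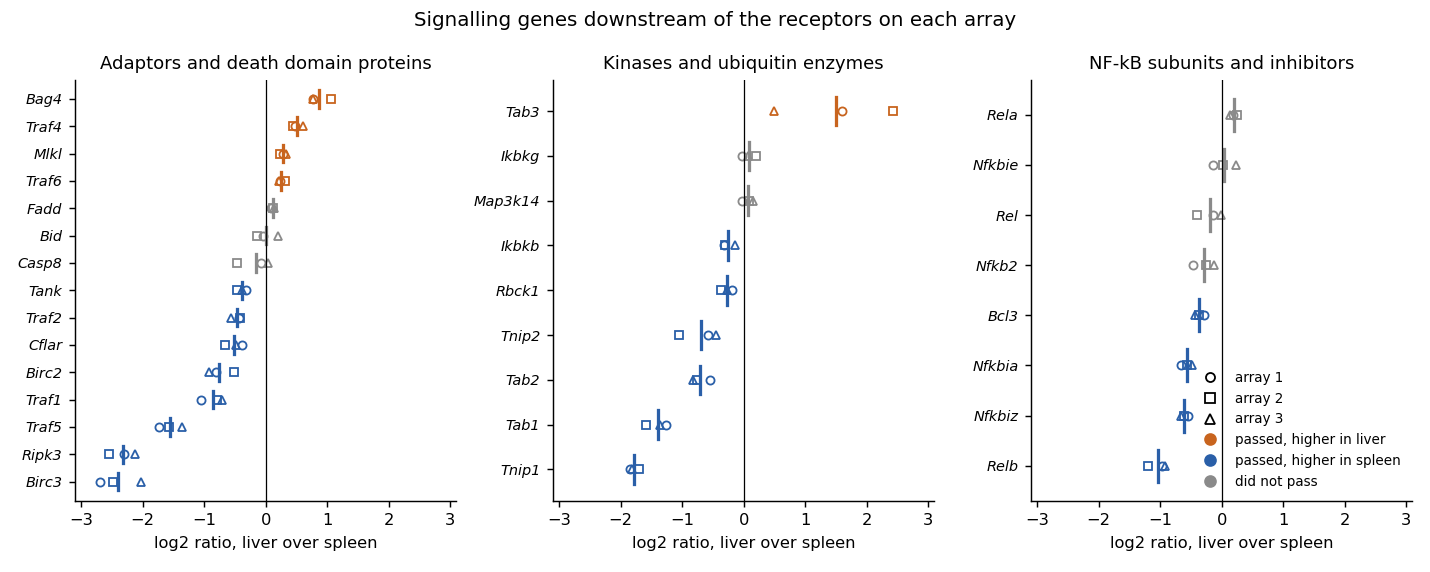
Log2 ratio (liver over spleen, x axis) of 32 signalling genes (y axis) on arrays 1 (circle), 2 (square) and 3 (triangle), with the mean as a vertical bar, blue where the gene passed toward spleen and orange toward liver. Birc3, Ripk3, Tnip1 and Traf5 lie furthest toward spleen, and Tab3 spreads widely between the arrays.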

How the data were processed

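The authors deposited 1 log2 ratio of the channels per probe and array. The log base was taken from the values, since on each array the values stop at 6.64, which is a ratio of 100 in log2. How the background, dyes, filters and centring were handled is not stated in the labels. Probes were named from the platform annotation. The Entrez number of all 55 member probes was found in the RefSeq table, and no symbol changed. A probe needed a non-zero value on all 3 arrays, and the probes that share a gene were averaged array by array, which left 12259 probes and 9803 genes. Tests of each gene, and separately of each probe, used limma 3.58.1 under R 4.3.3 (intercept against 0, moderated variances, two-sided, Benjamini-Hochberg over all features, threshold 0.05). The test was tried on simulated data. The number of arrays limits the precision. All members could be named, and from each signalling list the 3 largest past the test in each direction. The members, lists and promoter motifs were chosen with earlier results of these data known. Alternatives were leaving out each array, keeping exact zeros, at least 2 arrays per probe, centring, scaling, single probes, genes with 1 probe, adding probes of several genes and a 2-fold limit.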

Additional observations from a re-analysis of the deposited data

How the results depend on the processing

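Of the 36 members, 31 kept their side of the adjusted p threshold in every alternative computed for them other than the 2-fold limit, and none reversed among those that passed. The 5 others were Tnf, Lta, Tnfsf8, Tnfrsf1b and Tnfrsf19. Leaving out 1 array gave 5 to 7 members higher in liver and 11 in each case higher in spleen. Of all genes, 18.1% to 22% then passed toward liver and 21.3% to 25.4% toward spleen. The main test gave 25.3% and 27.4%. In these settings 4003 to 4726 genes passed the test, and the ligand minus receptor median was -0.31 to -0.20. With a 2-fold limit, 3 members were higher in liver and 6 in spleen. With each probe tested by itself, 19 of 52 member probes were higher in spleen, and over the 22 members with 1 measured probe 7 genes were, which are counts over other totals. Of all probes 26.6% passed toward spleen, and of all genes with 1 measured probe 25.9%. Adding probes that the annotation gives to several genes moved the ligand minus receptor median from -0.26 to -0.56, because 2 such probes at about -2.14 and -1.71 then entered the means of ligands, and brought Tnf (-0.92) and Lta (-1.31) past the test. Centring the arrays moved 2 more ligands past the test toward spleen, Tnf and Tnfsf8. No paired analysis was possible because the arrays form a single group of ratios. No intensities were at hand, so the signal over background behind a ratio is unknown.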

Other observations

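The annotation gives 2 further probes to more than 1 gene of these families, and they were left out of the tests above. One, assigned to 3 genes, read -2.10, -2.52 and -1.81 on arrays 1, 2 and 3, and the other, assigned to 2 genes, read -3.20, -0.82 and -1.11. Both lay toward spleen on every array, with means of -2.14 ± 0.36 and -1.71 ± 1.30, further than any single-gene ligand probe. Which transcript they measured was not resolved here.

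Markers of tissues that can adhere to a dissected spleen were read from the same table. Of 2 measured pancreas genes, Prss2 averaged -0.29 ± 0.06 and passed toward spleen, and Cela2a averaged -0.07 ± 0.02, from probes at -0.43 and 0.29, and did not. Of 3 fat genes, Adipoq and Fabp4 passed toward spleen at -0.83 ± 0.16 and -0.46 ± 0.17, and Cidec passed toward liver at 0.50 ± 0.14. Their part in the ratios of the ligands and receptors was not tested.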
